A study of Mus musculus with 6 samples.

Results

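The genes described here are 36 interferon-stimulated antiviral genes: effectors that act on viral RNA, proteins or membranes, sensors of foreign nucleic acid, and the enzymes of the ISG15 modifier. They were chosen by name for this function, without interferon regulatory factors, STATs, interferon-inducible large GTPases other than the MX pair, Schlafen genes or chemokines, and all 36 are listed among the 23398 genes of the deposited table. The choice was made with earlier results of these data known. The samples are dendritic cells grown from mouse bone marrow in DMEM with serum and antibiotics. They were exposed for 12 hours either to calcium hydroxide nanoparticles (3 libraries) or to vehicle (3 libraries), with 1 µg of total RNA per library. The labels name no mouse strain, age or sex, no growth factor, no particle dose and no vehicle, and nothing says whether the libraries came from separate animals or cultures, so the p-values measure the spread between these libraries only.

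Cells that detect foreign nucleic acid through sensors such as RIG-I, MDA5 or ZBP1, or bacterial products through Toll-like receptors, can secrete type I interferon. Interferon binds its receptor on the same and on neighbouring cells, JAK kinases phosphorylate STAT proteins, and these bind IRF9 to form a factor that recognises the interferon-stimulated response element in the promoters of many genes. The products block viral entry, degrade or edit RNA, trap virions at the membrane, deplete nucleotides, or feed back on the pathway, and dendritic cells are among the cells that run this programme strongly.

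Promoter sequence was set beside the expression values because the genes moved together. RefSeq promoter entries (GRCm38.p6, 250 bases before to 50 bases after each annotated start) were matched by symbol for 27 of the 36 genes, with 34 promoters in all; Rtp4, Oas2, Mx1, Parp14, Usp18, Mx2, Parp9, Dhx58 and Zbp1 had no entry. The core letters of the response element, GAAA, any 2 bases, then GAAA, were searched on both strands (TTTC, any 2 bases, then TTTC on the other). They were found in 13 of the 27 genes (48.1%), whereas 3.99% of all 27025 genes with an entry, and 3.44% of all 32851 promoters, held them. The letters of the gamma-activated site, TTCNNNGAA, which bind STAT dimers and read the same on both strands, were in 8 of the 27 genes (29.6%) and in 9.55% of all genes. A match is a run of letters and not a measured binding site. The 36 genes were chosen by name as interferon-stimulated, so both excesses describe that choice and not the response to nanoparticles. The stretches before the start site of 7 genes with a match are shown because they hold the letters upstream, 5′ to 3′ along the gene, with the matching letters in capitals and the last base next to the start site:
Isg15: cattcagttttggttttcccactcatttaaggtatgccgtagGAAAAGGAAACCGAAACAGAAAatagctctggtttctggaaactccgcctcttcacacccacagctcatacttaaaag
Ifit1: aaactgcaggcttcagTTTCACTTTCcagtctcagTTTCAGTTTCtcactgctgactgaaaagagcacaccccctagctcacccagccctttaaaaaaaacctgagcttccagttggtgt
Ifit3: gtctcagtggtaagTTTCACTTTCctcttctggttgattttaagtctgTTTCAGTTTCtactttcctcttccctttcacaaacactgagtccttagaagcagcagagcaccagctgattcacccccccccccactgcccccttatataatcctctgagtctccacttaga
Rsad2: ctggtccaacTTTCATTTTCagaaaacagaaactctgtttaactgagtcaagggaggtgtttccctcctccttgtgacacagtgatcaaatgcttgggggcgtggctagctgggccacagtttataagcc
Bst2: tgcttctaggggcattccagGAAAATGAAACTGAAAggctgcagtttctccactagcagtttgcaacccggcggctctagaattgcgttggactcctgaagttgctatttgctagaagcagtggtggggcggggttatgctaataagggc
Oas3: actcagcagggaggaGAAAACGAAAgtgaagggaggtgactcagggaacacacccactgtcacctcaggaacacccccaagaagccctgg
Oas1a: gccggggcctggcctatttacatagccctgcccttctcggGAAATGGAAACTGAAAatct
These lie at chr4:156200819-156200938 on the minus strand (Isg15), chr19:34640769-34640888 on the plus strand (Ifit1), chr19:34583359-34583528 on the plus strand (Ifit3), chr12:26456453-26456582 on the minus strand (Rsad2), chr8:71537473-71537622 on the minus strand (Bst2), chr5:120777660-120777749 on the minus strand (Oas3) and chr5:120907526-120907585 on the minus strand (Oas1a). Isg15 held 3 overlapping matches in tandem between positions -78 and -57, Bst2 and Oas1a held 2 overlapping matches each, and Ifit1 and Ifit3 held 2 separate matches each. Matches of 5 other genes lay just after the annotated start, 2 of them in Ifitm3 and 2 in Trim21:
Ifitm3: gGAAAAGGAAActtctgaGAAACCGAAAc
Trim21: gGAAACTGAAAGTGAAAt
Ddx58: gTTTCGATTTCc
Ifih1: cGAAACAGAAAc
Eif2ak2: gGAAAACGAAAc
These lie at chr7:141010715-141010743 on the minus strand (Ifitm3), chr7:102565453-102565470 on the minus strand (Trim21), chr4:40239813-40239824 on the minus strand (Ddx58), chr2:62646213-62646224 on the minus strand (Ifih1) and chr17:78882544-78882555 on the minus strand (Eif2ak2). In Trim30a, the remaining gene with matches, each of 2 promoters held 1 match. The 14 genes with an entry and no match in this window included Oasl1, the gene with the largest ratio of group means, whose stretch before the start at chr5:114923120-114923239 on the plus strand is shown for comparison:
Oasl1: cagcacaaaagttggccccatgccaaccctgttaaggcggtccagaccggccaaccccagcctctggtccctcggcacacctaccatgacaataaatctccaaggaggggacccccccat
The nanoparticle mean over the vehicle mean had a median of 11.3 in the 13 genes with a match and 18.7 in the 14 without, a difference that was not tested.

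**Figure D1:**
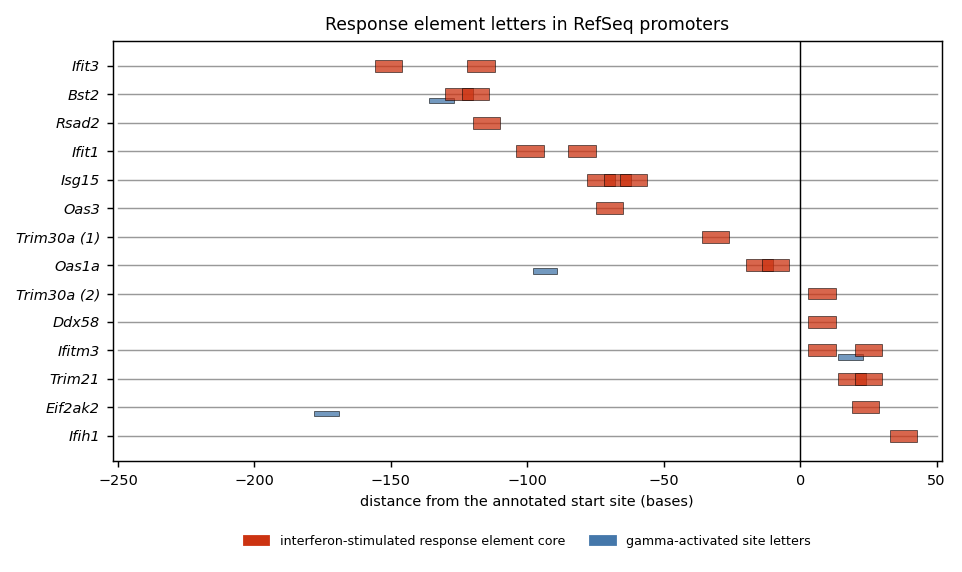
Positions of response element letters in the RefSeq promoters of the 13 genes with a match to the interferon-stimulated response element core, as distance from the annotated start site in bases (Trim30a has 2 promoters). Red bars are core matches and blue bars gamma-activated site letters; in 8 rows the core letters lie before the start site and in 6 rows after it.

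Expression is given in FPKM, fragments per kilobase of gene scaled to library size, a unit inferred from the values. Read numbers behind each value could be recovered from the gene lengths, and for all 36 genes they came out whole in every library (within 0.01 of a whole number). Recovered totals were 17276254 to 21971551 reads per library, and the fewest reads behind any value of these genes were 17, for Isg20 in vehicle library 2 (exact Poisson 95% interval 9.90 to 27.2, counting error only). Of the defining dendritic cell genes, Itgax, H2-Ab1 and Cd74 were abundant in every library, Zbtb46 was at 1.73 to 4.15 FPKM, and Flt3 did not exceed 0.0793 FPKM. The macrophage genes Adgre1, Csf1r, Mertk, Mrc1, C1qa and C1qb were detected as well. Nanoparticle library 1 stood apart from libraries 2 and 3 across the transcriptome, so its values are given separately throughout.

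All 36 genes were higher in each nanoparticle library than in any vehicle library. Of all 10682 genes tested, 25.9% showed such a separation upwards. A bulk value sums over cells, so more cells of a type and more RNA per cell cannot be told apart. In limma's moderated test on log2(FPKM + 1), with Benjamini-Hochberg adjustment over those 10682 genes and a threshold of 0.05, 35 of the 36 rose, 0 fell and Adar missed the threshold, against a background of 17.0% of tested genes called higher and 16.2% called lower. Testing took at least 1 FPKM in at least 3 libraries, and Oasl1, Isg20, Ifi44 and Mx2 met it through the nanoparticle libraries alone, being under 1 FPKM in all vehicle libraries. With no filter, 35 of the 36 again rose, against 6.99% of the 23398 genes. The median log2 change of the 36 genes was 3.13, beside -0.00 over all tested genes, and single changes ran from 1.12 to 7.15 on this scale, which understates changes of low genes. As ratios of group means, they ran from 2.54-fold to 379-fold with a median of 13.2-fold; 21 genes were at least 10-fold and 7 at least 100-fold higher.

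**Figure D2:**
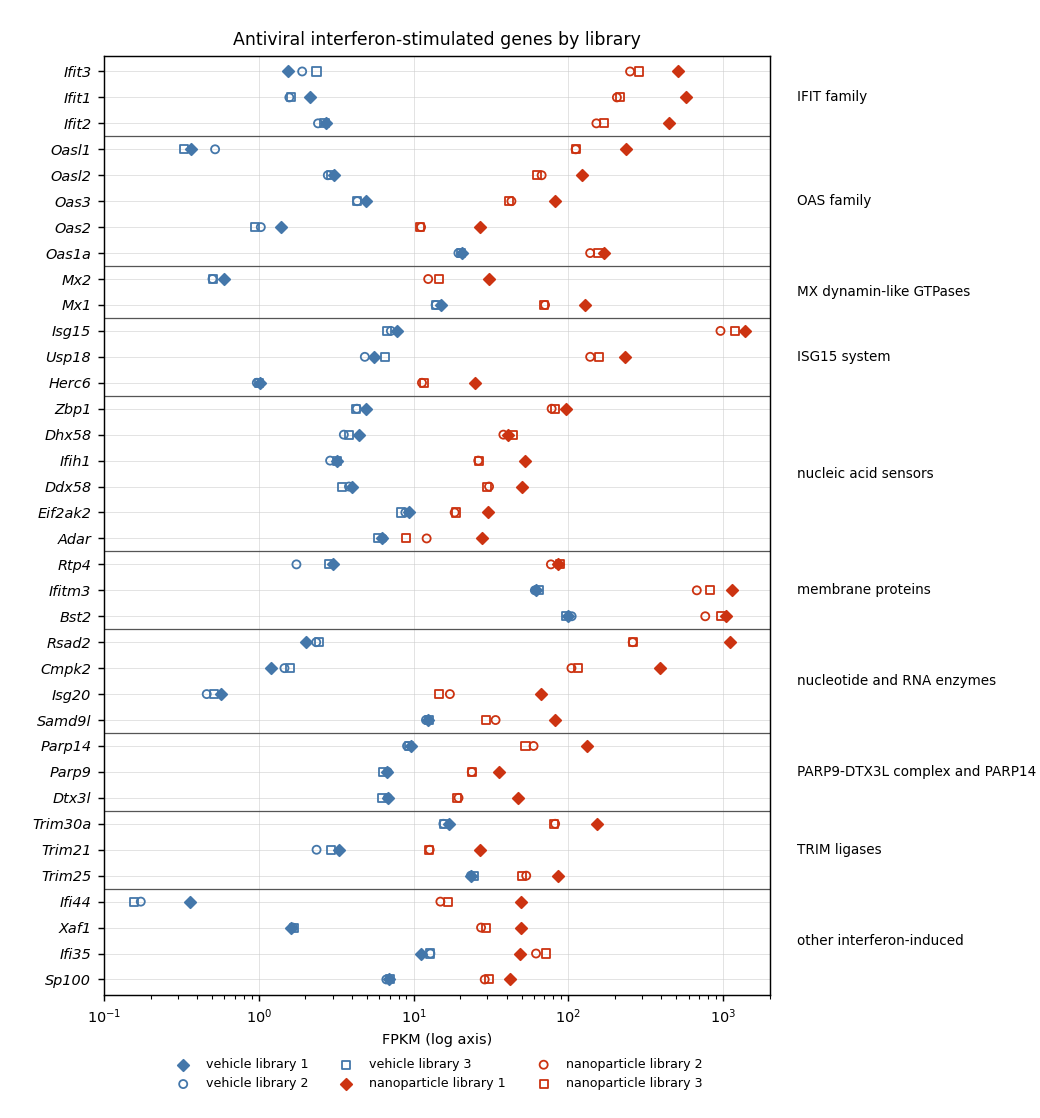
FPKM of each of the 36 genes in the 3 vehicle (blue) and 3 nanoparticle libraries (red), 1 symbol per library, on a log axis and ordered by role. Red symbols lie to the right of all blue symbols in every row, and the filled red diamond, nanoparticle library 1, lies rightmost in 33 of the 36 rows.

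Together the 36 genes took 0.119% to 0.121% of recovered reads in the vehicle libraries and 2.16%, 0.950% and 0.989% in nanoparticle libraries 1 to 3, a share that does not depend on scaling between libraries. Their make-up shifted too. In vehicle, Bst2 and Ifitm3 held 44.1% to 46.0% of their summed FPKM and Isg15 held 1.87% to 2.13%, while with nanoparticles Bst2 and Ifitm3 held 24.7% to 33.1% and Isg15 held 15.7% to 22.1%. Isg15 moved from rank 4678 to rank 51 among all genes by mean FPKM, Ifitm3 from 660 to 67 and Bst2 from 392 to 62. Genes that were low in vehicle had the larger ratios (Spearman rho -0.70 across the 36 genes, which share the same libraries, and the vehicle mean enters both quantities).

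**Figure D3:**
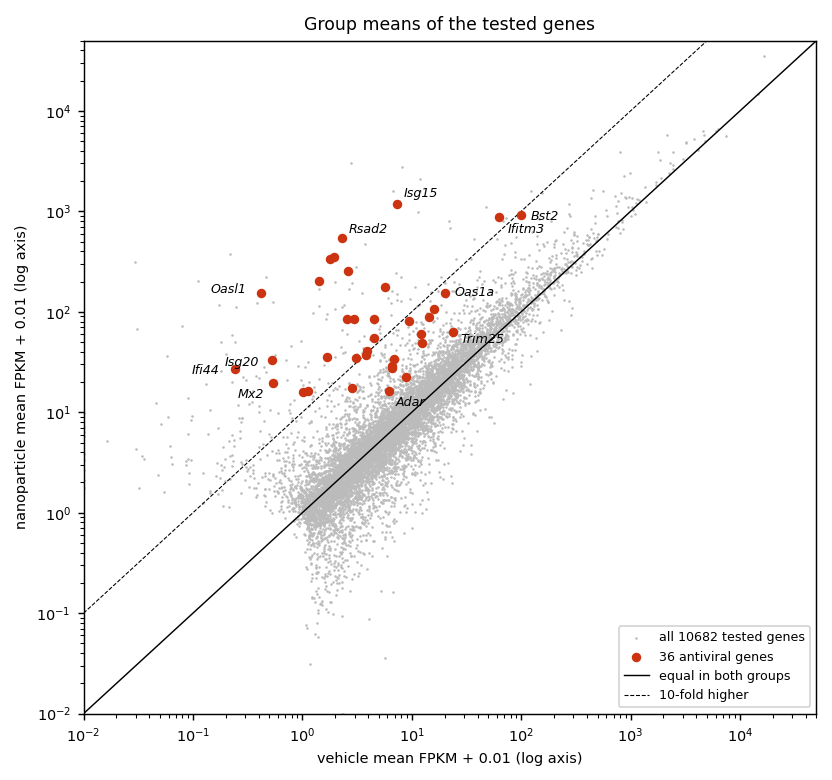
Mean FPKM with nanoparticles against mean FPKM with vehicle for the 10682 tested genes (grey) and the 36 antiviral genes (red), both on log axes after adding 0.01. All red points lie above the line of equality and 21 lie on or above the dashed line of a 10-fold difference, with Oasl1 at the largest ratio.

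Values below are in the order of libraries 1 to 3. Gene positions are those of GENCODE M21 on GRCm38, and each named gene is protein coding there except Mx2 and Oas1b.

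The IFIT genes encode tetratricopeptide-repeat proteins that bind viral RNA lacking host cap methylation and block its translation. All 3 rose, and their median log2 change of 6.75 was the highest of the 10 role groups. Ifit3 lies on chromosome 19, from 34583531 to 34588731 on the plus strand. It was at 1.55, 1.91 and 2.36 FPKM in vehicle and 508, 251 and 286 FPKM with nanoparticles, a 179.5-fold difference of the means (log2 change 6.83, SE 0.278, limma adjusted p = 4.2e-05). Ifit2, the smallest change of the family, lies on chromosome 19, from 34550694 to 34576419 on the plus strand. It went from 2.72, 2.41 and 2.66 FPKM to 447, 152 and 170.3 FPKM (log2 change 5.98, SE 0.401, limma adjusted p = 2.0e-04). In both, library 1 was the highest and libraries 2 and 3 lay close together, far above vehicle. Ifit1 was at 2.15, 1.58 and 1.605 FPKM in vehicle and 579, 206 and 217 FPKM with nanoparticles. These 3 genes sit in a row on chromosome 19 with their near relatives Ifit3b, Ifit1bl1 and Ifit1bl2, and how reads shared between such copies were counted is not stated, so the split within the family is uncertain.

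The OAS genes encode oligoadenylate synthetases, which on binding double-stranded RNA make an antiviral second messenger. OASL1 lacks this activity. All 5 rose. Oasl1 lies on chromosome 5, from 114923240 to 114937915 on the plus strand. It was barely expressed in vehicle, at 0.366, 0.522 and 0.331 FPKM (19, 27 and 18 reads), and reached 238, 112 and 112 FPKM (10116, 4817 and 5648 reads) with nanoparticles, the largest ratio of means among the 36 genes at 379-fold (log2 change 6.69, SE 0.301, limma adjusted p = 6.6e-05). Oas1a had the highest vehicle level of the family. It lies on chromosome 5, from 120896256 to 120907521 on the minus strand, and was at 20.6, 19.5 and 20.3 FPKM in vehicle and 169, 138 and 157 FPKM with nanoparticles (log2 change 2.88, SE 0.115, limma adjusted p = 3.9e-05). Here library 1 was near the others, at 1.15 times their mean, and the spread between nanoparticle libraries was small beside the difference between groups. Oasl2 went from 3.05, 2.79 and 2.94 FPKM to 122, 67.3 and 63.2 FPKM. Oas3 went from 4.91, 4.32 and 4.302 to 81.5, 42.9 and 41.6 FPKM and Oas2, the lowest of the family with nanoparticles, from 1.398, 1.03 and 0.947 to 26.9, 11.2 and 11.02 FPKM. Oas1a has close copies, among them Oas1g, so its share of the reads is uncertain.

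MX proteins are dynamin-like GTPases that block viral ribonucleoproteins. Both genes lie on chromosome 16, 72400 bases apart, and both rose. Mx1 had the higher vehicle level, 15.1, 13.9 and 13.9 FPKM, and reached 128, 70.8 and 69.98 FPKM with nanoparticles (log2 change 2.51, SE 0.243, limma adjusted p = 7.1e-04). Mx2, which the annotation calls a polymorphic pseudogene, was at 0.597, 0.502 and 0.504 FPKM in vehicle and 30.9, 12.4 and 14.7 FPKM with nanoparticles (log2 change 3.62, SE 0.317, limma adjusted p = 4.9e-04). Per length, Mx1 was the more abundant in each library, while Mx2 had the larger ratio, 36.2-fold beside 6.25-fold.

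ISG15 is a ubiquitin-like protein that is joined to viral and cellular proteins and is also secreted. Isg15 lies on chromosome 4, from 156199424 to 156200818 on the minus strand. It was at 7.83, 7.14 and 6.78 FPKM (118, 107 and 107 reads) in vehicle and 1392, 963 and 1192 FPKM (17186, 12047 and 17361 reads) with nanoparticles (log2 change 7.15, SE 0.162, limma adjusted p = 7.2e-06). All nanoparticle libraries were high, library 1 being only 1.29 times the mean of the others. The enzymes that attach it rose as well. The activating enzyme Uba7 went from 4.58, 4.42 and 4.502 FPKM to 31.8, 18.9 and 18.4 FPKM and the conjugating enzyme Ube2l6 from 12.5, 11.02 and 11.1 FPKM to 108, 113 and 129 FPKM (limma adjusted p = 8.5e-04 and 3.2e-05); both belong to the second list described below and are named here after their values were seen. Herc6, the ligase that attaches ISG15 in mice, was at 1.02, 0.972 and 1.01 FPKM in vehicle and 24.9, 11.3 and 11.7 FPKM with nanoparticles (log2 change 2.998, SE 0.2900, limma adjusted p = 7.1e-04). Usp18, which removes ISG15 and also blocks signalling from the interferon receptor, was at 5.52, 4.85 and 6.56 FPKM in vehicle and 234, 139 and 159 FPKM with nanoparticles, a 31.4-fold difference of the means.

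Of the 6 sensors of nucleic acid and their relatives, 5 rose. ZBP1 binds Z-form nucleic acid and can start inflammatory cell death. Zbp1 lies on chromosome 2, from 173206612 to 173218923 on the minus strand, and went from 4.92, 4.303 and 4.26 FPKM to 96.4, 78.1 and 81.5 FPKM, with similar values in all nanoparticle libraries (log2 change 3.97, SE 0.1203, limma adjusted p = 2.1e-05). The 3 helicases had similar vehicle levels. Ddx58, which encodes RIG-I, went from 4.03, 3.83 and 3.47 FPKM to 49.98, 30.8 and 29.7 FPKM. Ifih1, which encodes MDA5, went from 3.203, 2.89 and 3.19 FPKM to 52.3, 26.2 and 26.4 FPKM. Dhx58, which encodes LGP2, a regulator of both, went from 4.43, 3.55 and 3.81 FPKM to 40.7, 38.1 and 43.9 FPKM and its library 1 value lay between those of the others. The log2 changes of these 3 genes were 2.95, 3.06 and 3.09, with standard errors of 0.21, 0.27 and 0.11, and the differences between them were smaller than the largest of these errors. Eif2ak2 encodes PKR, the kinase that stops translation on binding double-stranded RNA, and had a smaller change, from 9.36, 8.86 and 8.32 FPKM to 30.2, 18.4 and 18.8 FPKM (log2 change 1.22).

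Adar was the single gene of the 36 that did not pass. It encodes the adenosine deaminase that edits double-stranded RNA and keeps self RNA from the sensors, and it gives a long interferon-inducible form and a short constitutive form that a gene-level value sums. Adar lies on chromosome 3, from 89715022 to 89753446 on the plus strand. It was at 6.26, 6.33 and 5.93 FPKM in vehicle and 27.5, 12.2 and 9.001 FPKM with nanoparticles. The groups did not overlap, but library 3 lay nearest to vehicle and library 1 farthest from it (log2 change 1.12, SE 0.3696, limma adjusted p = 0.061, 95% interval of the log2 change 0.22 to 2.01). Without nanoparticle library 1 the change was smaller but passed (log2 change 0.68, limma adjusted p = 0.0028), and without library 3 it passed as well (log2 change 1.43, limma adjusted p = 0.027).

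BST2, or tetherin, holds budding virions at the cell surface, and IFITM3 blocks fusion of virions with endosomes. Their genes had the highest vehicle levels of the 36. Bst2 lies on chromosome 8, from 71534255 to 71537456 on the minus strand, and went from 100.3, 105 and 96.6 FPKM to 1038, 768 and 969 FPKM, a 9.18-fold difference of the means (log2 change 3.18, SE 0.156, limma adjusted p = 8.4e-05). Ifitm3 was at 61.7, 60.9 and 64.99 FPKM in vehicle and 1151, 677 and 820.0 FPKM with nanoparticles. Of its paralogs Ifitm1 and Ifitm2, named here after their values were seen, neither passed. Ifitm1 was at 71.3, 87.6 and 90.4 FPKM in vehicle and at 10.2, 48.8 and 52.3 FPKM with nanoparticles, lower in each nanoparticle library than in any vehicle library but short of the threshold (log2 change -1.43, SE 0.595, limma adjusted p = 0.114). Ifitm2 was at 53.4, 61.5 and 60.2 FPKM in vehicle and 47.8, 97.9 and 99.4 FPKM with nanoparticles, below vehicle in library 1 and above it in libraries 2 and 3 (log2 change 0.41, SE 0.293, limma adjusted p = 0.335). Without nanoparticle library 1 both passed, in opposite directions, with log2 changes of -0.70 for Ifitm1 and 0.75 for Ifitm2 (limma adjusted p = 0.0015 and 1.9e-04). The third gene of this role, Rtp4, encodes a transmembrane chaperone of receptors that also restricts viruses. It lies on chromosome 16, from 23520291 to 23614222 on the plus strand, and went from 3.04, 1.75 and 2.83 FPKM to 86.1, 77.2 and 88.5 FPKM, nearly equal in the 3 nanoparticle libraries (log2 change 4.602, SE 0.168, limma adjusted p = 3.2e-05).

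Enzymes acting on nucleotides and RNA rose in all 4 cases, and 3 of them were the genes that set nanoparticle library 1 apart most. Rsad2 encodes viperin, which turns CTP into a chain terminator of viral polymerases, and Cmpk2 encodes a nucleotide kinase that feeds it. They are neighbours on chromosome 12, transcribed away from each other from start sites 12752 bases apart. Rsad2 lies on chromosome 12, from 26442746 to 26456452 on the minus strand. It was at 2.03, 2.35 and 2.45 FPKM (175, 202 and 222 reads) in vehicle and 1104, 261 and 263 FPKM (78112, 18711 and 21935 reads) with nanoparticles (log2 change 7.02, SE 0.558, limma adjusted p = 3.5e-04). Without library 1 its log2 change was 6.33. Library 1 held 4.22 times the mean of libraries 2 and 3, and its Rsad2 reads alone were 0.439% of that library. Cmpk2 followed the same order, with 1.21, 1.47 and 1.59 FPKM in vehicle and 394, 105 and 115 FPKM with nanoparticles. Isg20, an exonuclease for RNA, was at 0.567, 0.461 and 0.515 FPKM in vehicle and 66.9, 17.2 and 14.5 FPKM with nanoparticles. Samd9l, a restriction factor that limits translation, lies on chromosome 6, from 3372257 to 3399572 on the minus strand, and had the smallest change of the 4. It went from 12.4, 12.04 and 12.6 FPKM to 81.9, 33.9 and 29.5 FPKM (log2 change 1.74, SE 0.3700, limma adjusted p = 0.013), and it no longer passed when any single vehicle library was left out (limma adjusted p = 0.051 to 0.053).

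PARP9 and DTX3L form a complex that attaches ubiquitin and ADP-ribose and strengthens interferon signalling, and PARP14 is an ADP-ribosyltransferase of the same chromosome 16 cluster. All 3 genes rose. Parp14 lies on chromosome 16, from 35832874 to 35871544 on the minus strand, and went from 9.67, 9.08 and 9.37 FPKM to 132, 59.7 and 52.9 FPKM (log2 change 2.87, SE 0.338, limma adjusted p = 0.0014). Dtx3l, at 6.85, 6.82 and 6.27 FPKM in vehicle and 47.4, 19.5 and 19.2 FPKM with nanoparticles, rose by less than Parp14 (log2 change 1.83, SE 0.343, limma adjusted p = 0.0082). Parp9 was at 6.77, 6.81 and 6.39 FPKM in vehicle and 35.7, 23.8 and 23.98 FPKM with nanoparticles. The partners were at near-equal levels in vehicle, Parp9 was the higher in nanoparticle libraries 2 and 3, and Dtx3l was the higher in library 1. Their genes lie head to head on opposite strands and overlap by 682 bases, and since the strand of the counting is not stated, reads from the overlap cannot be assigned to either.

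All 3 genes of TRIM ubiquitin ligases rose. Trim25, which ubiquitinates RIG-I, had the highest vehicle level of the 3 and the smallest change. It lies on chromosome 11, from 88999376 to 89020293 on the plus strand, and went from 23.7, 23.5 and 24.6 FPKM to 86.4, 53.5 and 50.3 FPKM (log2 change 1.33, SE 0.213, limma adjusted p = 0.0046). Trim30a, which limits NF-kappaB signalling in mice, lies on chromosome 7, from 104409025 to 104465193 on the minus strand, and went from 17.1, 15.6 and 15.7 FPKM to 154, 82.3 and 80.96 FPKM (log2 change 2.58, SE 0.2595, limma adjusted p = 8.1e-04). Its copy Trim30d is similar, so the split of reads between them is uncertain. Trim21, the cytosolic receptor for antibody-coated virions, was at 3.28, 2.36 and 2.93 FPKM in vehicle and 26.99, 12.7 and 12.6 FPKM with nanoparticles.

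Of the 4 remaining genes all rose. Ifi44, an interferon-induced cytoplasmic protein, lies on chromosome 3, from 151730922 to 151749960 on the minus strand. It was at 0.3603, 0.173 and 0.156 FPKM (44, 21 and 20 reads) in vehicle and 49.7, 14.9 and 16.7 FPKM (4973, 1513 and 1973 reads) with nanoparticles, a 118-fold difference of the means (log2 change 4.31, SE 0.436, limma adjusted p = 8.2e-04) that was 68.8-fold without library 1. Sp100, a component of nuclear bodies that silence viral DNA, lies on chromosome 1, from 85649988 to 85709998 on the plus strand, and went from 6.99, 6.68 and 7.08 FPKM to 42.2, 28.8 and 30.6 FPKM (log2 change 2.12, SE 0.157, limma adjusted p = 2.8e-04). Xaf1, a promoter of cell death, went from 1.63, 1.66 and 1.696 FPKM to 49.4, 27.3 and 29.2 FPKM. Ifi35, a partner of NMI, was at 11.1, 12.9 and 12.7 FPKM in vehicle and 48.7, 61.9 and 71.6 FPKM with nanoparticles, and was the single gene of the 36 that was lower in nanoparticle library 1 than in both others.

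The nanoparticle libraries differed in how strongly these genes responded. Library 3 ran from 0.740 to 1.26 times library 2 across the 36 genes, with a median of 1.03. Library 1, by contrast, was above both others for 33 genes, between them for Dhx58 and Rtp4 and below them for Ifi35, where 42.3% of all tested genes were above both others in library 1. Its ratio to the mean of libraries 2 and 3 had a median of 1.89 over the 36 genes and 0.970 over all tested genes. In 15 genes it was at least 2, beside 7.89% of tested genes, and in 4 genes at least 3. Those 4 were Rsad2 (4.22), Isg20 (4.22), Cmpk2 (3.58) and Ifi44 (3.14). Ratios near 1 were seen for Dhx58 (0.992), Rtp4 (1.04), Oas1a (1.15), Bst2 (1.195), Zbp1 (1.21) and Isg15 (1.29). Genes with a high ratio were found among the strongest responders, such as Rsad2, and among the weakest, such as Adar (2.601) and Samd9l (2.59). Across the 36 genes the rank correlation of this ratio with the response of libraries 2 and 3 was 0.21 (Spearman rho, a description over genes of the same libraries, and both quantities use libraries 2 and 3). This rests on 1 library, so none of it has a replicate check. Without library 1, all 36 genes rose, against 34.3% of tested genes called higher, 18 were at least 10-fold higher than vehicle, and the median log2 change was 3.03.

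**Figure D4:**
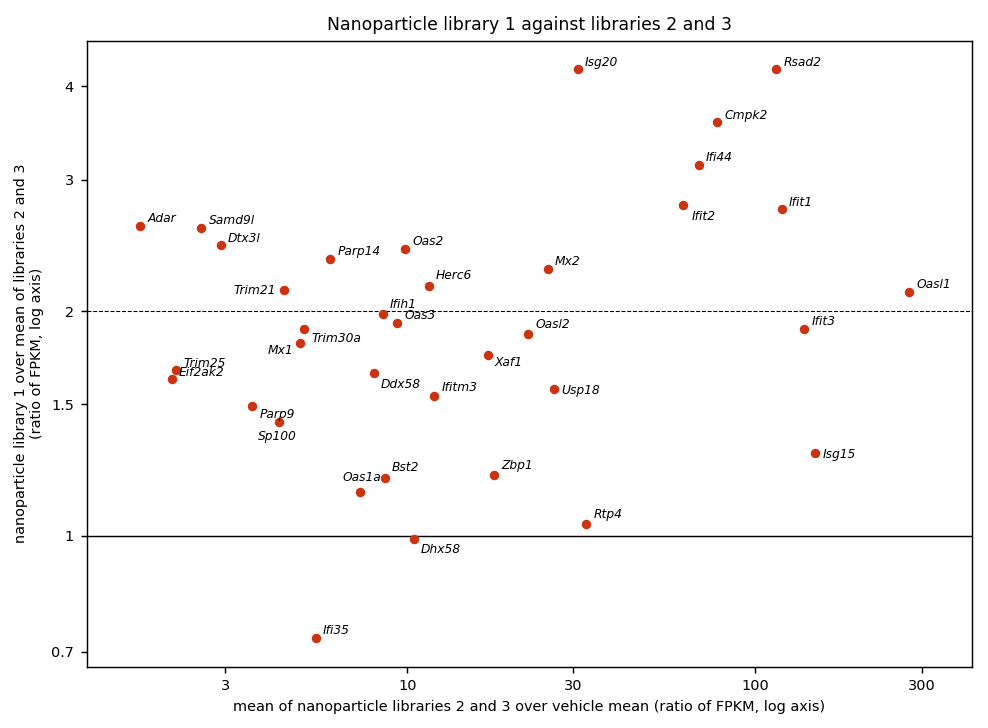
FPKM in nanoparticle library 1 divided by the mean of libraries 2 and 3, against that mean divided by the vehicle mean, for each of the 36 genes on log axes. The dashed line marks a ratio of 2, which 15 genes reach, with Isg20 and Rsad2 at the top, and only Dhx58 and Ifi35 lie below the line at 1.

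A list of 22 genes of interferon induction and signalling was examined, of which 21 are listed in the table and 19 were tested. It also holds brakes on signalling such as Socs1 and Socs3, so it is not confined to genes upstream of the 36. Of the 19 tested, 13 rose, 1 fell and 5 did not pass, with a median log2 change of 1.30. The 13 include Socs1, Socs3 and Nmi, with log2 changes of 2.27, 2.33 and 1.82. Over all tested genes, 17.0% were called higher and 16.2% lower. Ifnb1 and Ifna4, the only interferon genes of this list with values, were low. Ifnb1, which encodes interferon beta and is named here after its values were seen, was not tested, at 0.335, 0 and 0 FPKM (5, 0 and 0 reads) in vehicle and 0.653, 3.46 and 3.67 FPKM (8, 43 and 53 reads) with nanoparticles. Its level in library 1 was thus below those in libraries 2 and 3, the opposite order from most of the 36 genes. Ifna4 was listed at 0 in all vehicle libraries and in nanoparticle library 1, and rested on 6 and 8 reads in libraries 2 and 3. Both receptor chains rose, Ifnar1 with a log2 change of 0.71 and Ifnar2 with one of 1.298, as did Stat2 and Irf9, which encode parts of the transcription factor, at 2.02 and 1.55. The kinases Jak1 and Tyk2 did not pass.

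Irf7 and Irf1, which encode transcription factors, were among the genes of this list with the largest changes. Irf7, the factor that amplifies interferon production, lies on chromosome 7, from 141262706 to 141266481 on the minus strand. It went from 2.100, 1.88 and 1.95 FPKM to 366, 106 and 124 FPKM (log2 change 5.83, SE 0.453, limma adjusted p = 3.3e-04), with library 1 highest. Irf1 went from 5.504, 5.59 and 5.65 FPKM to 38.3, 32.9 and 34.9 FPKM (log2 change 2.46, SE 0.0975, limma adjusted p = 3.9e-05). Mavs, the mitochondrial adaptor that RIG-I and MDA5 need, was the single gene that fell. It was at 14.6, 13.1 and 12.5 FPKM in vehicle and 10.1, 10.6 and 9.79 FPKM with nanoparticles, a small change beside those of the sensors (log2 change -0.36, SE 0.0997, limma adjusted p = 0.034), and the call was lost with the replicate number as a block (limma adjusted p = 0.101) and in 5 of the 6 fits that each left out 1 library.

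**Figure D5:**
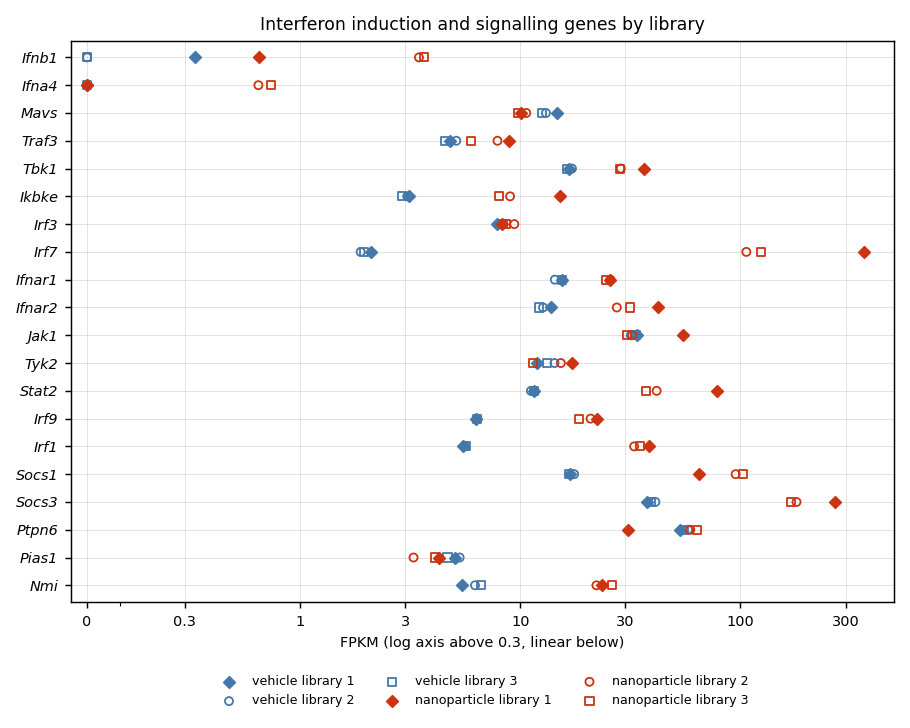
FPKM of 20 genes of interferon induction and signalling in the 3 vehicle (blue) and 3 nanoparticle libraries (red), on an axis that is logarithmic above 0.3 and linear below. Irf7 has the widest gap between groups, and Ifnb1 is lower in nanoparticle library 1 (filled red diamond) than in libraries 2 and 3. The groups overlap for Irf3, Tyk2, Jak1 and Ptpn6 and meet at 0 for Ifna4.

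A second list held 39 paralogs of the 36 genes and further antiviral effectors, of which 38 are listed and 36 were tested. It gave 30 genes that rose, 0 that fell and 6 that did not pass, with a median log2 change of 1.82. The shares over all tested genes were again 17.0% called higher and 16.2% called lower. Ifit1bl1, a relative of Ifit1, was far higher in nanoparticle library 1 than in the others. It went from 0.221, 0.599 and 0.316 FPKM to 305, 25.8 and 32.8 FPKM (log2 change 5.57, SE 0.898, limma adjusted p = 0.0046), and without library 1 its log2 change was 4.46, below that of Ifit3b at 4.56. Ifit3b went from 0.226, 0.177 and 0.168 FPKM to 59.1, 24.7 and 29.8 FPKM (log2 change 4.93, SE 0.307, limma adjusted p = 1.6e-04) and Phf11d from 1.83, 1.503 and 1.38 FPKM to 45.8, 21.99 and 20.7 FPKM (log2 change 3.48, SE 0.301, limma adjusted p = 4.7e-04). Ifitm1, Ifitm2, Ifi27, Herc3 and Trim5 were among those that did not pass. Ifit1bl1, Ifit3b, Ifit1bl2, Oas1b and Ddx60 met the filter through the nanoparticle libraries alone, being under 1 FPKM in all vehicle libraries. With no filter, 29 genes of this list were called, beside 3381 of all 23398 genes called in either direction.

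Bst2 also marks plasmacytoid dendritic cells, whose other markers were therefore examined. Siglech did not exceed 0.0149 FPKM and Ccr9 did not exceed 0.149 FPKM in any library. The 8 markers of these cells summed to 3.85 to 4.90 FPKM in vehicle and 5.02 to 7.85 FPKM with nanoparticles. They did not move together. Of the 2 tested, Cox6a2 rose and Runx2 did not pass, with means of 2.24 FPKM in vehicle and 2.07 FPKM with nanoparticles. Pacsin1, not tested, was at 0.608, 0.618 and 0.763 FPKM in vehicle and 0.00939, 0.0556 and 0.294 FPKM with nanoparticles. Tcf4, also not tested, was higher in each nanoparticle library than in any vehicle library. Markers of B cells (5 of 6 listed) summed to at most 0.394 FPKM and those of T and NK cells (7 of 8 listed) to at most 0.232 FPKM. The other lists hold few tested genes, and their part in these results was not tested. Their counts stand beside 17.0% of all tested genes called higher and 16.2% called lower. All 8 neutrophil markers were listed, and they summed to 35.4 to 39.3 FPKM in vehicle and 55.7, 114 and 128 FPKM in nanoparticle libraries 1 to 3, with 2 of the 3 tested called higher. S100a8 held most of this sum, at 33.4 to 36.0 FPKM in vehicle and 50.1, 90.3 and 109 FPKM with nanoparticles. Csf3r, the other gene called, had means of 0.586 FPKM in vehicle and 4.21 FPKM with nanoparticles. S100a9 was at 0.962, 0.966 and 1.65 FPKM in vehicle and 0.352, 13.2 and 10.2 FPKM with nanoparticles and did not pass. Ngp and Camp were not tested and did not exceed 0.901 FPKM in vehicle or 0.242 FPKM in nanoparticle library 1. In libraries 2 and 3, Ngp was at 4.30 and 3.23 FPKM and Camp at 1.83 and 1.99 FPKM. Ly6g, Mpo and Elane did not exceed 0.307 FPKM in any library. The 8 dendritic cell markers summed to 5387 to 5795 FPKM in vehicle and 3059, 6284 and 6843 FPKM with nanoparticles, lowest in library 1. Cd74, with means of 4116 FPKM in vehicle and 4111 FPKM with nanoparticles, made up most of this sum. Of the 7 tested, 3 fell: Cd209a (means 5.69 FPKM in vehicle and 0.0254 FPKM with nanoparticles), Clec10a (6.92 and 0.786 FPKM) and Zbtb46 (3.97 and 2.30 FPKM). The 8 macrophage markers summed to 1005 to 1132 FPKM in vehicle and 968 to 1201 FPKM with nanoparticles, with 3 genes that rose and 3 that fell. Markers of mast cells and basophils (5 of 6 listed) summed to at most 5.78 FPKM in any library, and 1 of the 3 tested, Gata2, fell.

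Directions are relative to the scale of the deposited values. Rescaling libraries to equal totals of recovered reads shifted the median over all tested genes to -0.29 (log2), and 1096 genes were called higher and 3698 lower in place of 1817 and 1733. On that scale 35 of the 36 genes still rose, with a median log2 change of 2.81.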

How the data were processed

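RNA from 3 vehicle and 3 nanoparticle libraries was extracted and built into NEBNext Ultra II libraries, per the labels' protocols. Per the submitters' processing notes the tools were CASAVA, STAR 2.5, HTSeq, edgeR 3.16.5 and DESeq2 2 and the builds mm10 and hg19, with no role given to any. The authors deposited 2 tables of 23398 genes whose 140388 values are identical. No header names the unit: that the authors scaled the deposited values to gene length and library size (FPKM) was inferred from the values. Using GENCODE M21 lengths (exons merged per gene), 95.8% to 96.1% of values above 0 became whole reads (within 0.01). For the totals, 741 genes that did not come out whole were then given another length, and 77 fit none. The scales recovered matched median-of-ratios size factors within 0.00381%, a deduction from the values. Of the gene IDs, 23366 matched M21.

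The 10682 genes that reached 1 FPKM in 3 or more libraries were tested with limma 3.58.1 in R 4.3.3 on log2(FPKM + 1), group as the single term, eBayes with trend and Benjamini-Hochberg adjustment (threshold 0.05), after a check on simulated data. All simulated libraries had the same spread, so the check does not cover a library that stands apart from its group. Library totals of 17276254 to 21971551 reads set the counting error. Between libraries of a group, chi-square per degree of freedom over genes with at least 20 reads was 2.84 to 231, so all pairs differed by more than sampling noise. Samples were grouped by their titles. The labels do not say that a replicate number marks a shared culture, so no block was used. Alternatives were the pseudocount, filters, scalings, no trend, a replicate block and leaving out each library. The 36 genes, their role groups and both gene lists were chosen with earlier results of these data known. In each role group, full statistics are given for the genes with the largest and smallest log2 change and for any gene not called, and in each list for the 3 largest changes and any gene called against the majority; some items are not reported here. Python 3.11.15 with numpy 2.4.6, scipy 1.17.1, pandas 2.3.3 and matplotlib 3.10.9 was used.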

Additional observations from a re-analysis of the deposited data

How the results depend on the processing

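Under all alternatives run, each of the 36 genes had a positive log2 change and 0 were called lower. The number called higher was 35 under every scaling, filter, pseudocount and moderation setting and 34 to 36 when 1 library was left out. Beside the 35, Samd9l was lost without any one vehicle library and Adar was gained without nanoparticle library 1 or 3. Their median log2 change of 3.13 was 3.58 with a pseudocount of 0.1, 2.69 with equal sums of FPKM, and 3.03 to 3.26 when 1 library was left out. The count over all tested genes, 3550, was 2141 to 6923 when 1 library was left out, 6923 being without nanoparticle library 1, and the cause was not tested. With equal sums of FPKM it was 863 genes higher and 4420 lower. The signalling list gave 12 to 15 calls and the second list 26 to 33 over all alternatives. With the replicate number as a block (replicate block) 2785 genes passed, 35 of the 36 among them. Correlations of the deviations of same-numbered libraries were 0.065, 0.11 and -0.058. Those of differently numbered libraries ran from -0.129 to 0.108. With 3 libraries per group, these values cannot show whether the numbers mark shared cultures. Of 378 values of the 27 genes named by rule, 367 kept their side of the threshold, 9 lost the call (Mavs and Samd9l), 2 gained it (Adar) and 0 reversed. With 17 reads behind the lowest value, vehicle levels of Isg20, Oasl1 and Ifi44 limit their ratios.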
